A study of Mus musculus with 11 samples.

Results

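The windows described here are the 19 that the authors' 4 deposited tables assign to the genes Tmx3, Gm14496, G530011O06Rik and 1700080N15Rik, of 1181 different windows in all. They were chosen by gene name, after the dorsal 24 h column had been seen to be low at them, so their dorsal values are a description and carry no test. Tmx3 has 5 windows, Gm14496 has 2, G530011O06Rik has 7 and 1700080N15Rik has 5. The working name of the set, high-signal repeat windows, held for 4 windows made largely of telomere-type repeats and not for all others: the 5 windows of 1700080N15Rik had between 5.59 and 7.34 RPKM at 22 h, 3 windows of G530011O06Rik had 64% or more of their words once in the genome, and 3 windows of Tmx3 were listed in the ventral part only.

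The study captured methylated DNA with an antibody and sequenced it (MeDIP-seq) from the suprachiasmatic nucleus (SCN), a hypothalamic structure that sets daily rhythms in mammals. Wild-type C57BL/6Cr1 mice, 6 weeks old at the start, were entrained over 6 weeks to days of 22, 24 or 26 h in length, followed by 3 days without light. Ventral and dorsal pieces were cut from 1 slice of the SCN of about 250 µm, taken at circadian time 4. The labels give 11 samples in 6 groups, 2 per group and 1 for dorsal 24 h, although the series entry speaks of duplicates, so what the dorsal 24 h column was made from is not known here. The labels also give an age of postnatal day 90 and no sex, and do not say how many mice make up a sample. Each group appears in the tables as 1 column, so differences have no replicate check, and every interval below covers counting error only. The tables hold selected windows: the largest unadjusted p-value in the authors' deposited tables was 9.22e-05 and 9.01e-05 for dorsal 22 h and 26 h, 9.94e-06 for ventral 22 h and 9.89e-05 for ventral 26 h. A listed window therefore had to differ between its columns, in either part, and intervals that exclude a ratio of 1 are no added evidence.

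Mammalian chromosomes end in telomeres, long arrays of the hexamer TTAGGG that protect the ends and are copied by telomerase. The hexamer holds no CpG, the dinucleotide at which most mammalian DNA methylation sits, whereas the sequence just inside the array is often methylated. Similar arrays also lie inside chromosomes. Genome assemblies carry only short stretches of telomere, so a sequenced telomere read can be placed at many sites, and the site it came from is not known.

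The sequences below show 2 kinds of repeat and a stretch that is not repetitive. They come from the mm9 reference, plus strand. In the first 2, capitals mark exact copies of the most frequent repeat unit of the window. The first has a unit of 42 bases, in a window assigned to 1700080N15Rik (chr2:3882001-3882300). The second has a unit of 31 bases in an intron of Mid1 (chrX:166431758-166432000), in a window assigned to G530011O06Rik. The last sequence (chrX:166422701-166423000), also assigned to G530011O06Rik, holds 15 CpGs, which capitals mark.
1700080N15Rik array: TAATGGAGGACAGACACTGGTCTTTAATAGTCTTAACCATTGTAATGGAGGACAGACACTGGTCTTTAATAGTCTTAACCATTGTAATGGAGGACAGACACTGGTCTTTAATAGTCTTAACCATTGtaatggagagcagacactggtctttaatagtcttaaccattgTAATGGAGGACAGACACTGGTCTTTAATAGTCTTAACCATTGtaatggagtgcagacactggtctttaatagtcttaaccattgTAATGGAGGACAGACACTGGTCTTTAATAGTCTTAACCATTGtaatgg
Mid1 intron array: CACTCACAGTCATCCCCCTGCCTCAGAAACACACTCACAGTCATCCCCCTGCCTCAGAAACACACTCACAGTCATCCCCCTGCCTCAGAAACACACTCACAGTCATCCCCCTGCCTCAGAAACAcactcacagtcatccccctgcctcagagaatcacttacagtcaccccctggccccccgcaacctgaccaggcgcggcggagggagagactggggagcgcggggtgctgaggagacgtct
Mid1 CpG stretch: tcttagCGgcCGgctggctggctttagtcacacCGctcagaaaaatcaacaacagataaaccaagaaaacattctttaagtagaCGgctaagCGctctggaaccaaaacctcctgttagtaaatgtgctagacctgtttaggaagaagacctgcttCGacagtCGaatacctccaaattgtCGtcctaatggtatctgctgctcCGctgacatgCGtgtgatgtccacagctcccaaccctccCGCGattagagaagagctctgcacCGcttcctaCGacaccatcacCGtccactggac

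The windows were chosen by gene name, but the working name of the set already calls them repeat windows. The shares below are therefore a description and no independent support for that name. Of the 19 windows, 9 had no CpG (47.4%), against 55 of 1162 other listed windows (4.73%) and 163 of 2000 random windows (8.15%). The median was 1 CpG, against 16 in the other listed windows. Tandem repeats mean here that at least 30% of the 15-base words recur within 100 bp. They were present in 10 of 18 windows (55.6%), against 13.0% of the other listed and 1.15% of the random windows. The 18 include a G530011O06Rik window with 6 bases of sequence, which cannot hold a 15-base word and was counted as without repeats. In 14 of the 18 windows that hold a 31-base word, under 50% of these words occurred once in the genome (77.8%). The share was 72.7% of the other listed windows and 13.9% of the random ones. Touching windows share sequence, so these counts are no independent units and were not tested.

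The telomere-type arrays lie at chromosome ends or, in 1 case, before an assembly gap. The window nearest Tmx3, which encodes a disulfide isomerase of the endoplasmic reticulum membrane, spans 90771501 to 90772000 of chromosome 18, 31 bp from the last base of the chromosome sequence, and holds 73 hexamers (TTAGGG or its complement CCCTAA, counted on both strands). The window nearest Gm14496, a predicted protein-coding gene, spans 181747501 to 181748000 of chromosome 2, 87 bp from the end, with 78 hexamers. G530011O06Rik is a long noncoding RNA gene on the X chromosome. It has a window at the chromosome end (166650001 to 166650500, of which 296 bases are sequence, with 47 hexamers) and another (166527001 to 166527500, 55 hexamers) just before a gap of 50000 bp. All 4 windows lie between genes, from 21.8 kb (Gm14496) to 233 kb (G530011O06Rik) from the start site of the gene that names them. Every hexamer in them reads TTAGGG on the plus strand, the orientation of a telomere at that end, also in the window before the gap.

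These 4 windows are the densest of their kind that the tables list. In the whole mm9 grid of 500-bp windows, 7 held 40 or more hexamers, and the 4 listed among them are these. Of the 21 chromosomes, 5 ended in 500 bp with 20 or more hexamers: 2, 5, 11, 18 and X. All 5 had a listed window at the end in the dorsal comparison of 24 h with 22 h, the other 2 being nearest Rfc3 on chromosome 5 and Ptchd3 on chromosome 11. The remaining 16 chromosomes had at most 1 hexamer in that stretch, and for the Y chromosome the stretch is an assembly gap.

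In the dorsal list these windows stood high, at ranks 7 to 14 of 131 by RPKM at 24 h and 7 to 13 at 22 h. At the 3 of them with values in all 3 dorsal columns, the signal was lowest at 24 h and highest at 22 h. The Tmx3 window had 62.4 RPKM in the dorsal 24 h column, 137 at 22 h and 94.3 at 26 h. It was thus 2.2-fold lower at 24 h than at 22 h (95% interval 1.81 to 2.68) and 1.51-fold lower than at 26 h (1.23 to 1.86). The Gm14496 window had 85.1 RPKM at 24 h, 132 at 22 h and 103 at 26 h. Its ratios were smaller, 1.55 (1.3 to 1.85) and 1.21 (1.01 to 1.46). The G530011O06Rik window before the gap had 40.2 RPKM at 24 h, 82.5 at 22 h and 61.4 at 26 h, ratios of 2.05 (1.61 to 2.64) and 1.53 (1.18 to 1.99). The window at the end of the X chromosome was listed against 22 h alone, with 61.5 against 82.8 RPKM, a ratio of 1.35 (1.09 to 1.67). In the 3 windows listed in both dorsal tables the order of columns was the same, 24 h, then 26 h, then 22 h. The step from 24 h to 26 h was the least certain at Gm14496, where the lower bound was 1.01. At G530011O06Rik the step from 26 h to 22 h was 1.34-fold (1.1 to 1.64). Both dorsal comparisons share the 24 h column, which is 1 library in the labels. The median 31-base word of these windows occurs 1348 to 1355 times in mm9. A read made of the repeat can thus be placed at more than 1 of them, so they are not separate measurements.

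**Figure D1:**
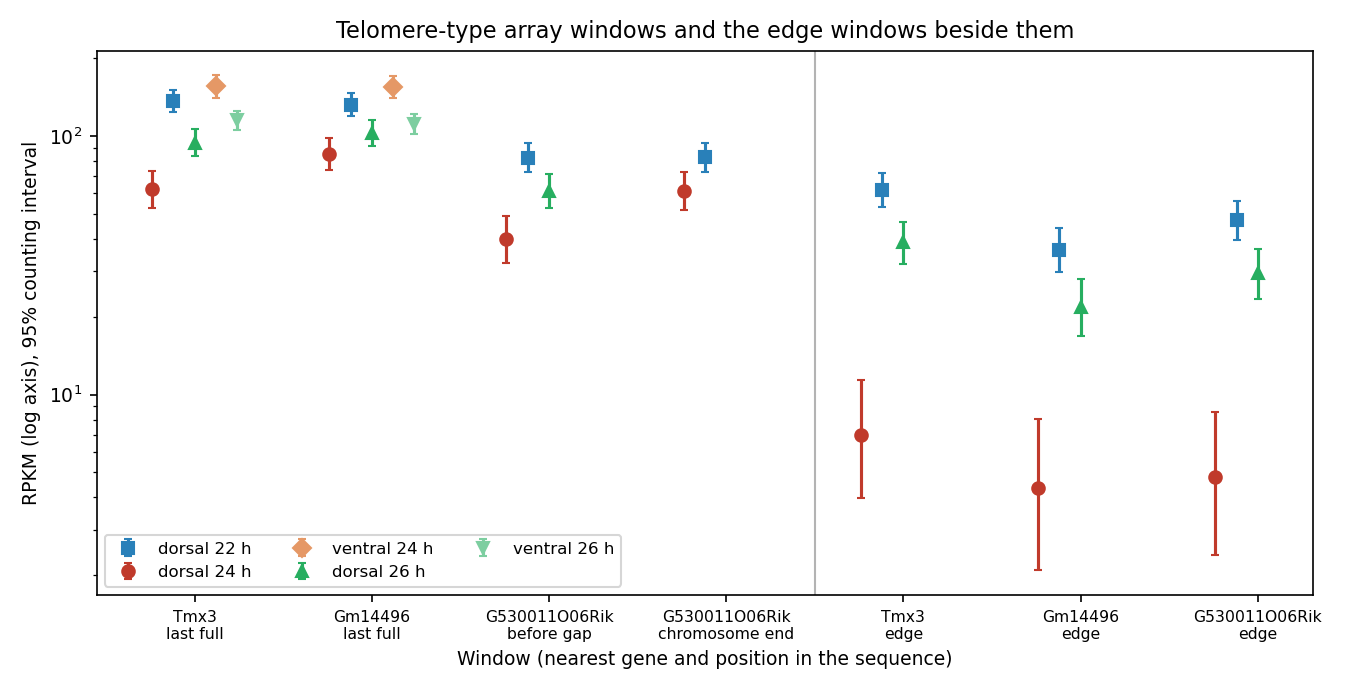
RPKM on a log axis for the telomere-type array windows (left of the line) and for the next windows, which run past the sequence end or into the gap (edge, right), with exact 95% Poisson intervals of the recovered reads; each point is 1 column of the authors' tables. The dorsal 24 h column is the lowest at each window; in the full windows it lies between 40.2 and 85.1 RPKM and in the edge windows between 4.36 and 6.98.

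The ventral columns did not enter the choice of genes but hold listed windows alone. Against 26 h they went the other way at the Tmx3 and Gm14496 array windows. Other Tmx3 windows, described below, were lower at ventral 24 h than at 22 h. At the Tmx3 array window the ventral 24 h column had 156 RPKM and the 26 h column 115, 1.35-fold higher at 24 h (1.19 to 1.54). At the Gm14496 array window the values were 155 and 111, 1.39-fold higher (1.22 to 1.59). Neither passed the fold of 1.5 used here for counts, which 23.5% of the 217 windows of that table did in this direction, while 26.7% were higher at 24 h by sign. In the authors' deposited table their log2 fold changes were 0.61 and 0.62, which correspond to slightly more than that fold. Neither array window was listed in the ventral comparison with 22 h, so the ventral 22 h level was not analysed here.

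Across the 5 columns that hold these windows, the order was the same at both: dorsal 24 h, dorsal 26 h, ventral 26 h, dorsal 22 h and ventral 24 h from low to high. Dorsal 22 h and ventral 24 h at Tmx3 (137 and 156 RPKM, ratio 1.14, 0.986 to 1.31) were not separated by counting error, nor were dorsal 26 h and ventral 26 h at Gm14496 (103 and 111 RPKM, ratio 1.08, 0.936 to 1.25). The parts come from separate tables and both windows can share reads, so this order is a description. The 24 h columns thus held both the lowest and the highest value. The difference between the parts was not tested, since each part has 1 column per cycle length.

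Among the windows of the 4 genes with reads at dorsal 24 h, the largest deficits lay in windows that contain hardly any sequence. The grid window after each array runs past the end of chromosome 18 or chromosome 2, or into the gap of the X chromosome, and holds 31, 87 and 6 bases of sequence at Tmx3, Gm14496 and G530011O06Rik in that order. RPKM was nevertheless scaled to 500 bp. The Tmx3 edge window (90772001 to 90772500) had 6.98 RPKM at 24 h, 61.9 at 22 h and 38.8 at 26 h, which is 8.86-fold (5.31 to 15.8) and 5.56-fold (3.28 to 10.1) lower. The Gm14496 edge window (181748001 to 181748500) had 4.36, 36.4 and 21.8 RPKM, with ratios of 8.34 (4.35 to 17.9) and 5.01 (2.55 to 10.9). The G530011O06Rik edge window (166527501 to 166528000) had 4.8, 47.2 and 29.5 RPKM, with ratios of 9.83 (5.32 to 20.2) and 6.14 (3.26 to 12.8). In all 3 the 24 h column was far below the others, and 22 h was above 26 h. Summed over the 3, the ratio of 22 h to 24 h was 9 (6.42 to 13), against 1.87 (1.67 to 2.1) in the 3 full windows beside them. Against 26 h the sums gave 5.58 (3.94 to 8.1) and 1.38 (1.22 to 1.55). The arrays can share reads, so these sums join windows that are not independent.

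The same values can be read within each column. At Tmx3 the edge window held 16 reads at 24 h, 11.2% of the 143 in the full window beside it (95% interval 6.23 to 18.8). The share was 45.2% at 22 h (177 of 392; 37.6 to 54.1) and 41.2% at 26 h (112 of 272; 32.7 to 51.5). At Gm14496 the shares were 5.13%, 27.5% and 21.2% at 24, 22 and 26 h, and at G530011O06Rik 12.0%, 57.2% and 48.0%. The interval at 24 h lay below those at 22 h and 26 h for each array, while those at 22 h and 26 h overlapped. This share does not depend on the depth of the column, but it can depend on fragment length. The labels give fragments of 300 bp for all samples, and differences between libraries could not be checked. The dorsal 24 h shares come from 1 library in the labels. How reads were assigned to a window that they only reach in part, and whether they were lengthened to fragments first, is not given in the sources used here. A read may therefore count in both windows. The intervals of the shares treat the counts of both windows as separate reads, so they are approximate.

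**Figure D2:**
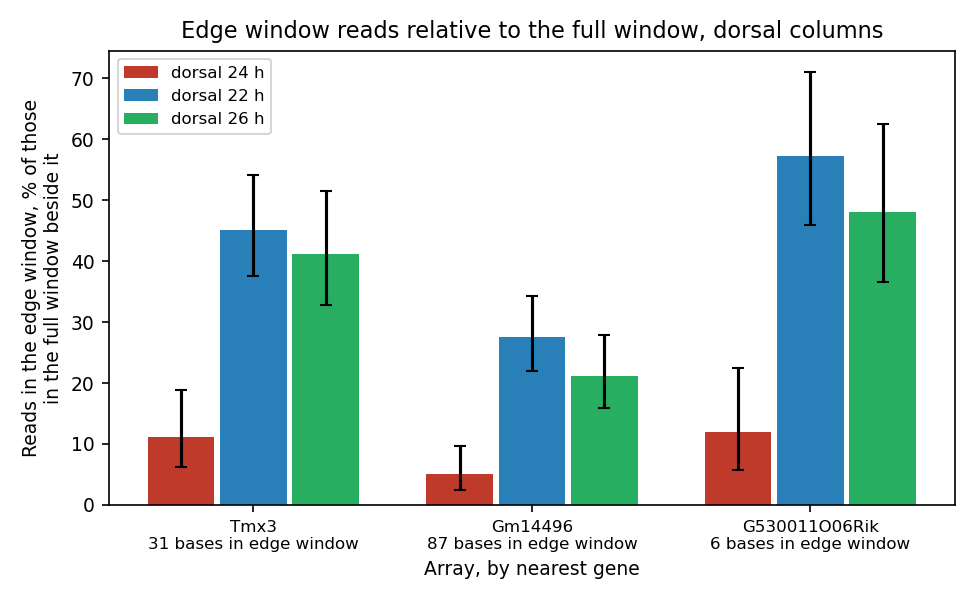
Reads of the edge window as a percentage of the reads in the full array window beside it, for the 3 dorsal columns. The 95% intervals come from exact binomial limits that treat the counts of both windows as separate reads, though a read may count in both. The number of bases of sequence inside each edge window is given under the gene. The 24 h bars (5.13 to 12.0%) lie below the 22 h bars (27.5 to 57.2%) and the 26 h bars (21.2 to 48.0%) at all 3 arrays.

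A like contrast appeared at an array inside a chromosome that does not belong to the 4 genes. Nearest 4930529K09Rik on chromosome 14, a window with 24 hexamers (86598501 to 86599000) had 17.0 RPKM at dorsal 24 h and 36.0 at 22 h, a ratio of 2.12 (1.45 to 3.14). The next window (86599001 to 86599500), with 0 hexamers, 97.9% of its words unique and 500 bases of sequence, had 2.18 and 25.2 RPKM, a ratio of 11.5 (4.72 to 36.6). This gene was singled out after its values were seen.

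Other telomere-type windows in the dorsal table moved by similar amounts. With 5 hexamers as the minimum, 12 of the 131 windows listed for dorsal 24 h against 22 h held telomere-type repeats, and all 12 were lower at 24 h. The 4 of them in the set described here had ratios of 1.35 to 2.2, and the other 8 ratios of 1.98 to 2.64. The Ptchd3 window at the end of chromosome 11 (34 hexamers) had 21.4 against 42.3 RPKM, and the Rfc3 window at the end of chromosome 5 (22 hexamers) had 10.9 against 24.8. Of all windows listed there, 93.1% were lower at 24 h by sign, so the direction alone does not set these windows apart. At least the 4 of the set can share reads, so the 12 are not separate measurements. Counted with the windows that touch such a window, 24 of the 131 (18.3%) held or touched telomere-type repeats, and 10 of 79 (12.7%) in the dorsal comparison with 26 h. The counts were 6 of 812 (0.739%) and 2 of 217 (0.922%) in the ventral tables for 22 h and 26 h, and 0 of 2000 random windows. These shares are not like for like, since the limits of p differ between tables and the 24 dorsal windows include 7 of the 4 genes.

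In the ventral part, all but 1 of the listed telomere-type windows were higher at 24 h. Besides the Tmx3 and Gm14496 windows against 26 h, 5 windows with 5 or more hexamers were listed against 22 h, none of them nearest the 4 genes. Higher at 24 h were 2 nearest Adam18, a sperm surface protein gene (6.12 against 0.24 RPKM, and 7.65 against 0.98) and 2 nearest Tsix, the antisense regulator of X inactivation (12.2 against 3.18 RPKM, and 9.18 against 2.2). The fifth, nearest Sgsm3, held 12 hexamers and 13 CpGs and was lower, 0.76 against 8.32 RPKM. Of all windows listed there, 24.3% were higher at 24 h by sign. The 2 Adam18 windows touch each other, as do the 2 Tsix windows. In the ventral 22 h column 1 read is 0.245 RPKM, and the first Adam18 ratio of 25.5 had an interval of 3.88 to 1048.

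**Figure D3:**
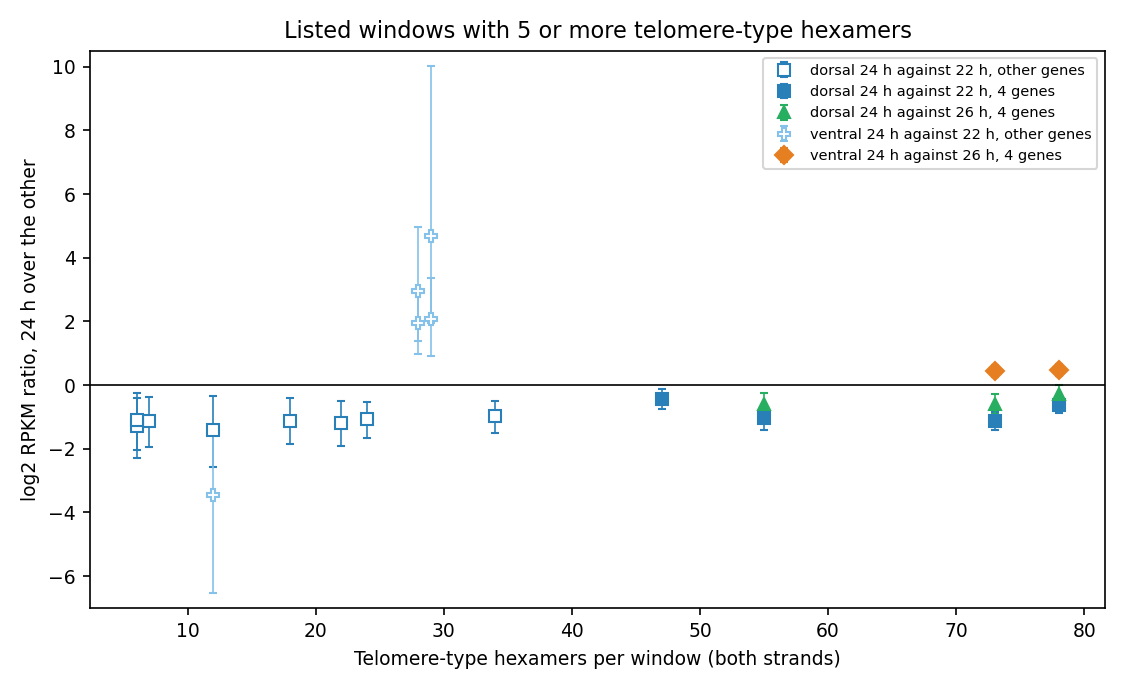
The log2 ratio of RPKM, 24 h over the other cycle length, against the number of telomere-type hexamers in the window, for each listed window with 5 or more, with exact 95% intervals; filled symbols are windows of the 4 genes, open symbols other genes. The dorsal points lie below 0 and the ventral ones above, except the Sgsm3 window, which lies lowest.

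The 4 remaining windows of G530011O06Rik lie in Mid1, a ubiquitin ligase gene that crosses the boundary of the pseudoautosomal region in mice, the part of the X chromosome that pairs with the Y. They stand 3.9 to 14.9 kb from the start site of G530011O06Rik, hold 0 hexamers and 9 to 19 CpGs, and 3 of the 4 were mostly unique. The windows at 166422501 and 166423001 overlap exons annotated to Mid1 and to a noncoding transcript on the other strand, and the others are intronic. The window at 166423001 also overlaps an exon of Gm17379, annotated as protein-coding on that other strand. At 166420501 to 166421000 the dorsal values were 3.06 RPKM at 24 h, 10.8 at 22 h and 12.1 at 26 h, 3.54-fold (1.53 to 9.54) and 3.96-fold (1.74 to 10.6) lower at 24 h. The 22 h and 26 h columns did not differ beyond counting error (ratio 1.12, 0.671 to 1.88).

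The other Mid1 windows were listed against 22 h alone. The window at 166422501, the one with the CpG stretch printed above, had 9.6 against 24.5 RPKM (2.55-fold lower, 1.56 to 4.32). The touching window at 166423001 had 9.6 against 19.2 (2-fold, 1.2 to 3.45). The window at 166431501, with the repeat unit of 31 bases, had 18.3 against 30.8 (1.68-fold, 1.15 to 2.48). Summed over the 4, 22 h was 2.1-fold above 24 h (1.65 to 2.7), close to the 1.87-fold of the array windows and unlike the edge windows. Besides those of G530011O06Rik, 5 windows of the X chromosome were listed in this table, all lower at 24 h, as were 93.1% of all its windows.

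The windows assigned to 1700080N15Rik, a noncoding RNA gene, were empty at 24 h. They lie between genes, at 3882001 to 3883500 and 3884501 to 3885500 of chromosome 2. The start site of 1700080N15Rik is 177 to 180 kb away, and that of the protein-coding gene Frmd4a, at 3938763, is closer. The windows are part of an array of the unit of 42 bases that covers 9 grid windows (3881501 to 3886000). The unit occurs 47 times without a mismatch in mm9, all of them there. All 5 listed windows had 0 reads in the dorsal 24 h column, where 3 reads would be 1.31 RPKM. At 22 h they had 7.34, 6.29, 7.34, 6.64 and 5.59 RPKM in order along the chromosome, from 16 to 21 reads each. With the 24 h column set to a floor of 3 reads per window, the ratios were 4.27 to 5.61, which depend on that floor. The exact 95% lower limits, which also cover counting error at 22 h, were 3.09- to 4.17-fold. Over the 5 windows together 95 reads were counted at 22 h and 0 at 24 h. Only 1 of the 5 holds a CpG. None was listed against 26 h or in the ventral part, so those levels were not analysed here. Reads from 1 copy of the unit can be placed at others, so the 5 windows are not 5 separate measurements.

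The 3 windows of Tmx3 listed in the ventral part lie upstream of the gene and are of another kind again. They span 90599501 to 90600000 and 90665501 to 90666500 of chromosome 18, 79.8, 13.8 and 13.3 kb from the start site, between genes. They hold 0 hexamers and 34, 9 and 14 CpGs, and 0% of their 31-base words occur once in the genome. At ventral 24 h they had 3.06, 1.15 and 1.53 RPKM, and at 22 h 16.7, 11.5 and 12.5. The ratios were 5.44 (2.61 to 13.1), 10 (3.23 to 50.4) and 8.16 (3 to 31.1). All 3 were lower at 24 h by more than 1.5-fold, as were 75.1% of the 812 windows listed there, with 75.7% lower by sign. The gene name Tmx3 therefore joins windows that were lower at ventral 24 h against 22 h and, a window that was higher at ventral 24 h against 26 h.

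Counted together, all 16 windows listed for dorsal 24 h against 22 h were lower at 24 h, 15 of them by 1.5-fold or more, where 90.8% of all windows of that table were lower by that fold. None of the 16 was higher, by that fold (3.05% of all windows) or by sign (6.87%). Against 26 h, all 7 were lower by sign (78.5% of all windows) and 6 by that fold (73.4%); none was higher (21.5%). Since the windows were chosen from these columns, nothing is read from these counts. The median log2 ratio was -1.96 over the 16 windows and -2.00 over all windows of the table, and against 26 h -1.99 and -2.43. Without the 4 windows that run past the sequence or into the gap, the medians were -1.59 and -0.60. The authors' log2 fold changes, from the authors' deposited table for 22 h, ran from -1.35 to -0.65 in the array windows and from -3.56 to -3.45 in the edge windows, each further below 0 than the log2 ratio of RPKM.

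**Figure D4:**
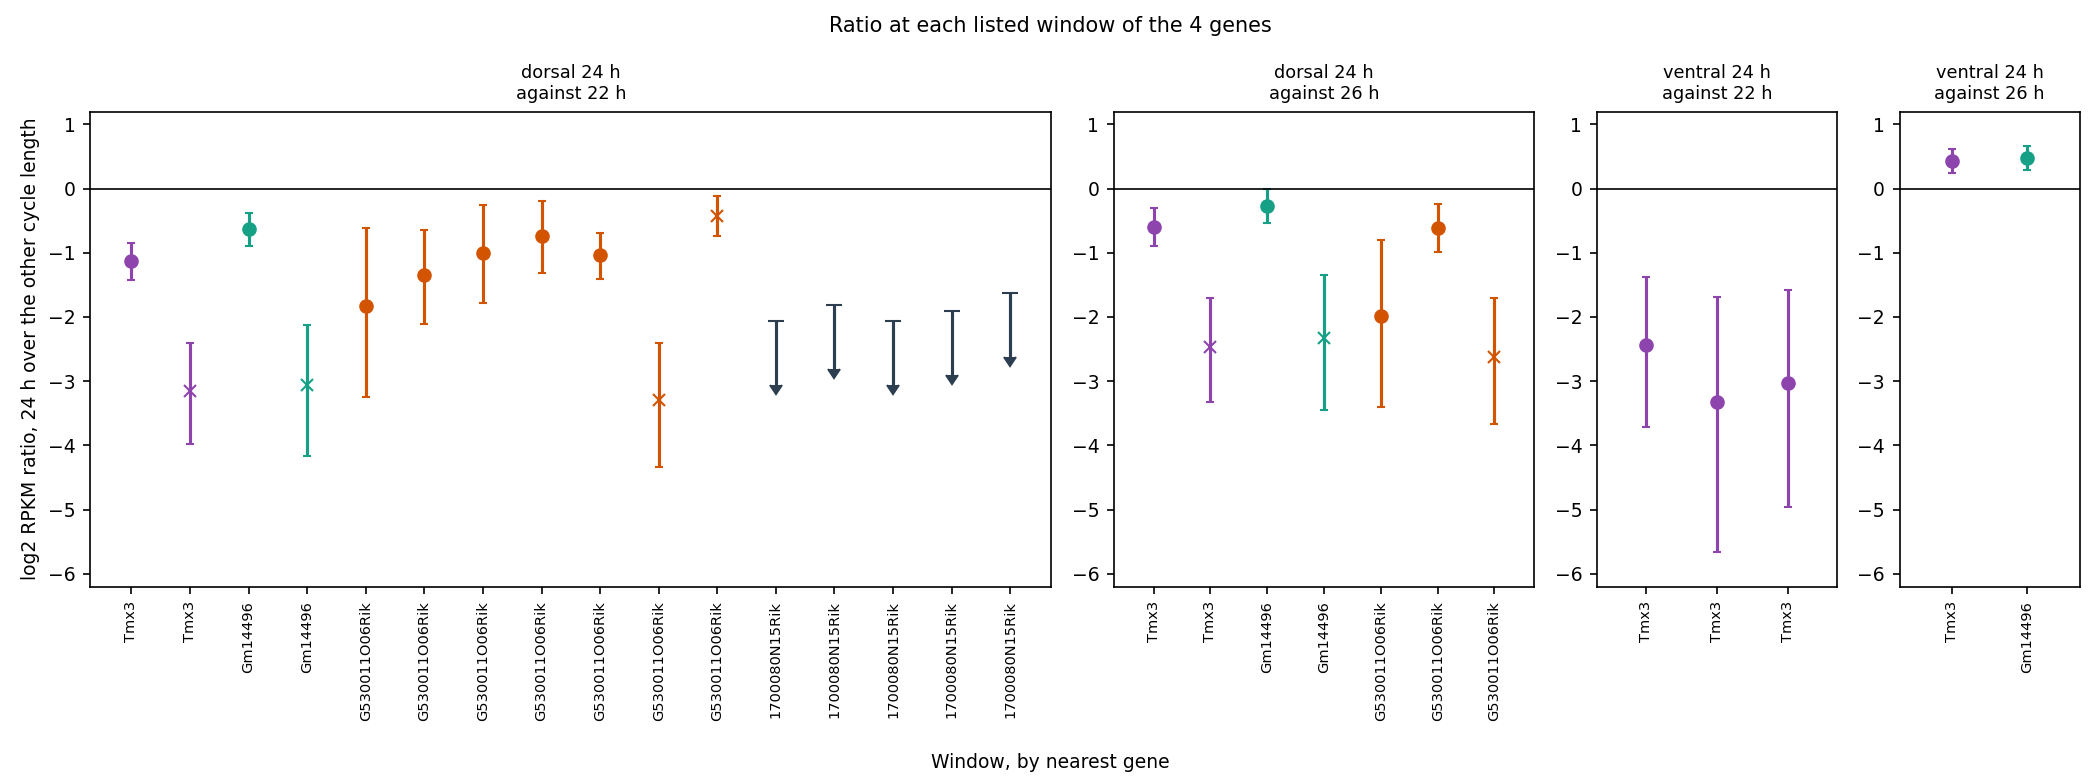
The log2 ratio of RPKM, 24 h over the other cycle length, for each listed window of the 4 genes in the 4 comparisons, with exact 95% intervals; crosses mark windows that run past the sequence end or into the gap, and arrows mark upper limits where the 24 h column had 0 reads. Dorsal points lie below 0, with 3 crosses lowest among the windows that have reads in each dorsal panel, and the ventral points against 26 h lie above 0.

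Likeness to these windows was measured over the 26 windows in both dorsal tables, 7 of them of the 4 genes, as the distance of the 2 log2 ratios from the median of the 7. Both medians (-1.82 and -1.99) are the values of a single window, the one in the Mid1 intron at 166420501, and not of an array or edge window. The nearest of the 15 other genes were Rims1, which encodes a protein of the presynaptic release site, Cenpw, which encodes a centromere protein, and Col19a1 (distance 0.88), a collagen gene. The Rims1 window had 0 RPKM at 24 h, 4.89 at 22 h and 5.55 at 26 h, and the Cenpw window 0, 6.29 and 5.89. Their ratios are thus set by the floor of 3 reads, and their place in the order has no firm meaning. Both are unique in sequence with 0 or 1 hexamers, and each touches a window with at least 11 hexamers. The Col19a1 window had 6.98, 43.3 and 21.8 RPKM, with 0 hexamers. Of its 31-base words, 0% occur once in the genome, so its reads can also be placed elsewhere. The measure rests on 3 columns that all these windows share.

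Listed windows within 20 kb of either end of a chromosome's sequence, other than those named, were few. Nearest Mir101c, at the start of chromosome 9, 3 windows had between 454 and 513 RPKM at dorsal 24 h and between 399 and 444 at 22 h, 1.14- to 1.16-fold higher at 24 h, and 3 others were 1.73- to 1.78-fold higher at ventral 24 h than at 26 h. They hold under 5 hexamers. Of the ventral ones, the window at 2999501 to 3000000 lies wholly before the first called base of the chromosome. It nevertheless had 91.4 RPKM at ventral 24 h and 52.4 at 26 h. A window nearest Cr2 on chromosome 1 had 5.74 against 18.9 RPKM at ventral 24 h and 22 h, and a window nearest Vmn1r238 on chromosome 18 had 0.76 against 5.3 at ventral 24 h and 26 h.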

How the data were processed

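MeDIP-seq windows of 500 bp were compared between cycle lengths in the ventral and the dorsal SCN. The submitters' processing notes name BWA and mm9; versions, read assignment and the joining of samples are not given in the sources used here. The authors' columns named counts are treated as a score here. Judged by their values and not by the file headers, they are rescaled and not proportional to RPKM. The authors' RPKM, per the file headers, gives reads scaled to window length and column depth. The log2 fold change and the unadjusted p-value of the authors come from edgeR, per the file headers, with 1 column against 1; the p-value served only to describe which windows are listed. Columns of means repeat the single columns and were left out. The ventral table for 26 h repeats 3 rows, which were dropped.

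Reads were recovered from RPKM, as each column's values below 15 RPKM were whole multiples of 1 step within 0.01 RPKM. Depths were 4580000 reads for dorsal 24 h, 5720000 for 22 h and 5770000 for 26 h, and 5230000, 8170000 and 9430000 for ventral 24, 22 and 26 h. Ratios carry exact Clopper-Pearson 95% intervals; a column at 0 was set to 3 reads per window. PCR copies cannot be told from separate molecules. Called meant a fold of 1.5, since no test between groups was possible. Sequence came from mm9, annotation from GENCODE M1. Hexamers TTAGGG and CCCTAA were counted within each window without overlap; 16.4% of 2000 random windows held 1 or more. Named were all windows of the 4 genes, the 3 genes nearest in pattern and genes within 20 kb of a sequence end; Adam18, Tsix, Sgsm3, 4930529K09Rik and the genes of the closing section were named after their values were seen. Windows and comparisons were chosen with earlier results of these data known. Read recovery, word counts and repeat detection were tested on simulated data. Alternatives were the authors' scaling, a pseudocount of 1 RPKM, summed neighbours, a minimum of 10 RPKM, a fold of 2, words of 50 bases and a 50% limit for repeats. Intervals used scipy 1.17.1, tables pandas 2.3.3 and numpy 2.4.6, genome searches pysam 0.24.0 and numba 0.67.0, plots matplotlib 3.10.9, all under Python 3.11.15. The sequences of the telomere-type windows are not reported here.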

Additional observations from a re-analysis of the deposited data

Results flagged for a closer look

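The telomere-type windows at the ends of chromosomes 18 and 2 moved in opposite directions in the dorsal and the ventral part when 24 h was compared with 26 h. At Tmx3 the log2 ratio of 24 h over 26 h was -0.60 in the dorsal and 0.43 in the ventral columns, a gap of 1.03. At Gm14496 it was -0.27 and 0.48, a gap of 0.75. The difference was not tested, because each part has 1 column per cycle length and the dorsal 24 h group has 1 sample in the labels. The genes were chosen for low dorsal 24 h values, so the dorsal side of each gap was selected. A listed window also had to differ between its columns. The dorsal ratio at Gm14496 was 1.21-fold, with a lower bound of 1.01. Both windows can share reads, so they are not separate measurements.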

How the results depend on the processing

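Of 52 alternative values for 14 results, none reversed, but all windows of the set shared 1 sign in each comparison, which left little room for it. By the rule used, 49 stayed within 1.5 times for counts or, for medians, within the counting interval of the middle windows. Some alternatives kept the same windows, so this number is no measure of robustness. The counting interval is wide, and for dorsal 24 h over 22 h it has no lower end, because 1 middle window had 0 reads at 24 h. Inside that interval, 4 medians still moved by over 1.5-fold. For dorsal 24 h over 22 h the median log2 ratio went from -1.96 to -1.13 with a minimum of 10 RPKM and to -2.82 with the authors' log2 fold change. For dorsal 24 h over 26 h it went from -1.99 to -0.98 with touching windows summed, and for ventral 24 h over 22 h from -3.03 to -2.41 with a pseudocount of 1 RPKM. The other 3 values, a median and 2 counts, moved further. Without the windows that run past the sequence end or into the gap, an alternative chosen after seeing the data, the median log2 ratio of dorsal 24 h over 26 h moved from -1.99 to -0.60, and the windows lower by 1.5-fold fell in number from 6 to 3; fewer windows remain by construction. With the authors' log2 fold change, 2 windows in place of 0 passed the fold as higher at ventral 24 h against 26 h; the cause was not tested. No paired analysis was possible because the tables hold 1 column per cycle length, and for the same reason no replicate could be left out. Windows with 0 reads at 24 h have no upper limit to their fold, and unlisted windows were not analysed here.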

Other observations

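Some listed windows lie beside telomere-type arrays inside chromosomes. Of the windows listed against 22 h, 9 outside the 4 genes held under 5 hexamers and touched a window with 5 or more. All 9 were lower at 24 h, with 4.89 to 25.2 RPKM at 22 h and 0 to 2.18 at 24 h, where 93.1% of all windows of the table were lower by sign, so their direction does not set them apart. Their nearest genes included Marcks, which encodes a substrate of protein kinase C at the membrane (0.87 against 10.1 RPKM), Ikzf2, a zinc finger transcription factor (0.44 against 6.64), Bbox1, an enzyme of carnitine synthesis (0.44 against 8.74), and Tbl1xr1, a transcriptional corepressor subunit (0.44 against 8.39). Of the 9, 4 had 1 read and 2 had 0 reads at 24 h, so single folds are imprecise. The touching windows of these 4 genes were not themselves listed. These genes were named after their values were seen.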
